A study of Mus musculus with 32 samples.

Results

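The genes described here are 8 genes of the thyrotroph cells of the pars tuberalis, the thin sheet of pituitary tissue that lies against the median eminence (ME) at the base of the hypothalamus. They were chosen by name (Cga, Tshb, Cck, Pitx1, Timeless, Eya3, Mtnr1a and Apoc3), and all 8 were among the 27998 genes of the count matrix. Their levels were measured in the cells with at least 20 unique molecular identifiers (UMIs, counts of captured RNA molecules) of Cga, called Cga-rich cells below, and in all other cells. There were 35 Cga-rich cells among 5982, or 0.585% (95% exact interval 0.408 to 0.813%).

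Thyrotrophs make thyrotropin (TSH), a hormone of an alpha subunit encoded by Cga and a beta subunit encoded by Tshb. In the pars tuberalis these cells carry the melatonin receptor Mtnr1a and follow day length: melatonin, made at night, holds back the coactivator Eya3, and TSH released toward the hypothalamus acts on the TSH receptor of tanycytes, the ependymal cells that line the floor of the third ventricle. There it sets the deiodinases Dio2 and Dio3, which activate and inactivate thyroid hormone, and through them seasonal breeding in many mammals.

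Cells came from the ME of C57B/L6 mice aged 40 to 47 days, and no transgene or agent is named for them. In the fasted group, the tissue of 5 mice that had been without food overnight (16 h) was combined. In the refed group, the tissue of 5 mice that had the same fast and then food for 1 h was combined. The tissue was dissociated with papain, sorted by FACS for cells with nuclei that excluded DAPI, and each condition was split over 2 libraries of the 10x 3′ kit, sequenced as 32 lane records. Cells of a condition came from mice that were pooled before sorting, so single mice cannot be told apart.

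Barcodes carry a suffix, 1, 2, 3 or 4, that no source used here links to a condition. Fasted and refed cells were therefore not compared, all values below are for both conditions together, and they come from 1 matrix with no replicates. Intervals are 95% exact Poisson intervals for levels and exact binomial intervals for shares, and both cover counting error only. Levels are UMIs summed over the cells of a group per 1e+06 UMIs of that group (CPM), not divided by gene length. Cga-rich cells were deeper, with a median of 8016 UMIs (5093 to 15205) against 3822 in the other 5947 cells. Their median mitochondrial share was 4.78% against 4.05%. 21 barcode sequences were found under more than 1 number, and no Cga-rich cell carried one. The doublet caller Scrublet marked 50 cells, none of them Cga-rich.

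The promoters of Cga, Tshb and Cck are shown because these peptide hormone genes mark the small group of cells described below. Each is the 250 bases before the start of the gene in RefSeq (GRCm38.p6), written 5′ to 3′ on the strand of the gene, with capitals at matches to 7 short motifs. RefSeq windows were held for 6 of the 8 genes (Cga, Tshb, Cck, Timeless, Eya3 and Mtnr1a).
Cga, chr4:34893529-34893778, plus strand: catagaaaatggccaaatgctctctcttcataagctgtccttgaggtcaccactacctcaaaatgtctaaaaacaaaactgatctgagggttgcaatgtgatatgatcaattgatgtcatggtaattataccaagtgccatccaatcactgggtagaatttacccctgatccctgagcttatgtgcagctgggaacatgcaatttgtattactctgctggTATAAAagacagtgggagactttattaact
Tshb, chr3:102782715-102782964, minus strand: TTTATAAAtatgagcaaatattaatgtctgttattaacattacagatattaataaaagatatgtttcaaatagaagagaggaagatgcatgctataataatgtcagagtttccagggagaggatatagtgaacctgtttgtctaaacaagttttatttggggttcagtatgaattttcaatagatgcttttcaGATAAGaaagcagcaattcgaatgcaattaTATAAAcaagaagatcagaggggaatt
Cck, chr9:121495695-121495944, minus strand: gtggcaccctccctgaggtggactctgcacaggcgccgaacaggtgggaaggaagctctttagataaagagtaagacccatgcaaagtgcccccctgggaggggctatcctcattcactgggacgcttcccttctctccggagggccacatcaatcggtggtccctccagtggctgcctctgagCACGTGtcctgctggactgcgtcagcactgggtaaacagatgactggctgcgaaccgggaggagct

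Motifs were searched on both strands in these 250 bases and in 32851 RefSeq windows of the same length. The TATA box TATAAA lay 30 to 25 bases before the start of Cga and 27 to 22 bases before that of Tshb, and 12.4% of all windows held it. Tshb had a second stretch at its far end, where matches on both strands overlap. The GATA motif GATAAG (6.55% of windows) was 57 to 52 bases before the start of Tshb. The E-box CACGTG (6.02% of windows), read by clock and other bHLH factors, was 66 to 61 bases before the start of Cck, and Mtnr1a held another at 207 to 202 bases. Timeless held the D-box TTANGTAA (2.06% of windows), read by Hlf, Dbp and Tef, at 157 to 150 bases before its RefSeq start. That window, chr10:128237816-128238065, lies inside Timeless in the annotation used for gene positions, where the gene starts at 128232065. The cAMP response element TGACGTCA (1.55%), the bicoid-type motif TAATCC read by Pitx factors (6.25%) and the NR5A motif TGACCTTG (1.33%) had no match in the 6 windows. GC content ran from 29.6% for Tshb and 40% for Cga to 60% for Cck. Matches are letters in a window, and no binding was measured.

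Cga split the cells cleanly. The Cga-rich cells held 39 to 990 Cga UMIs, with a median of 154, and the other cells held 3 at most. Of the others, 5432 cells had no Cga UMI, 477 had 1, 36 had 2 and 2 had 3, and no cell lay between 3 and 39. The summed level was 28942 CPM (28333 to 29560) in Cga-rich cells and 19.1 CPM (17.6 to 20.8) in other cells. Since Cga chose the cells, this gap describes the choice. Together the 8 genes made up 4.96% of the UMIs of Cga-rich cells and 0.00746% of those of other cells.

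**Figure D1:**
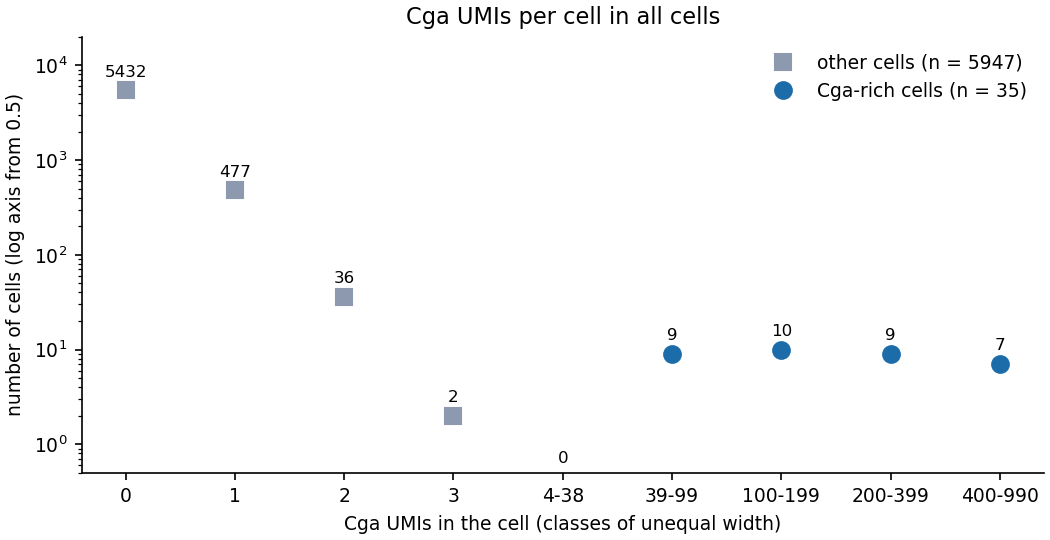
Number of cells (log axis) by the number of Cga UMIs in the cell, in classes of unequal width, for the 35 Cga-rich cells (circles) and the 5947 other cells (squares). No cell falls in the class from 4 to 38 UMIs.

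The label of the cells was checked with lists of marker genes, none of which holds one of the 8 genes. Of 11 pituitary epithelium markers, 9 were detected in Cga-rich cells, and Lhx4 and Hesx1 were at 0. Pou1f1 had 1 UMI, in a cell outside the main cluster described below. Detection alone does not tell types apart, since all 6 astrocyte, 6 oligodendrocyte and 6 microglia markers were detected too. The summed level of the pituitary list was 2377 CPM against 74.2 in other cells. The astrocyte (377 against 2278), oligodendrocyte (215 against 3179) and microglia (80.8 against 1581) lists were lower. When cells were grouped into 26 clusters with the 8 genes left out, 32 of the 35 Cga-rich cells (91.4%, 76.9 to 98.2%) formed a cluster of 32 with no other cell in it, called the main cluster below and pituitary epithelium-like by its markers. The other 3 fell into a mixed cluster of 57 cells led by haemoglobin genes, Pomc and neuron genes. The summed neuron list (6 markers, Rbfox3 at 0) was 2539 CPM in Cga-rich cells and 3151 CPM in other cells. Per cell, it ran from 321 to 4433 CPM in the main cluster and from 4993 to 10127 CPM in the 3 cells outside. In the main cluster, 1 cell reached 4199 CPM of the astrocyte list and 1 reached 4902 CPM of the list for vascular and leptomeningeal cells (VLMC), with medians of 185 and 0. The part of such RNA in the values below was not tested.

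Across the 13953 genes with at least 50 UMIs, 111 (0.796%) were at least 4-fold higher in Cga-rich cells and 491 (3.52%) at least 4-fold lower, on the scale of log2(CPM + 10), where the median of all genes was -0.27. Of the 8 genes, 7 had at least 50 UMIs and 6 were at least 4-fold higher, 5 of them apart from Cga. These 6 were all among the 10 genes with the largest log2 ratios. Eya3 did not reach 4-fold, and Mtnr1a had too few UMIs to be ranked. The median log2 ratio of the 6 ranked genes besides Cga was 6.70. The genes were chosen with earlier results of these cells known, so these counts describe them and are not an independent check.

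Tshb, the subunit that gives TSH its specificity, had 0 to 139 UMIs per Cga-rich cell, with a median of 3. 25 of the 35 cells (71.4%, 53.7 to 85.4%) had a Tshb UMI, against 35 of 5947 other cells (0.589%). In microglia-like cells, which should lack it and were shallower (median 3093 UMIs), the share was 0.247%, or 1 of 405 cells. Shares in other types differed, at 0.141% in astrocyte-like, 1.05% in oligodendrocyte-like and 1.54% in macrophage-like cells (2 of 130). The level was 1731 CPM (1584 to 1887) against 1.24 CPM (0.870 to 1.72), a log2 ratio of 7.27 and place 5 of all genes. So 93.5% (91.1 to 95.4%) of all Tshb UMIs lay in these 35 cells. When every cell was thinned to 2000 UMIs, 17 of 35 Cga-rich cells (48.6%) and 10 of 5643 other cells (0.177%) kept a Tshb UMI.

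The beta subunit of luteinising hormone, Lhb, pairs with the same alpha subunit. In Cga-rich cells it was at 246 CPM against 3.76, a log2 ratio of 4.22, with a UMI in 16 of 35 cells. In the main cluster, 4 cells had at least 5 Lhb UMIs (26, 16, 7 and 6), and their Tshb UMIs were 0, 0, 0 and 1. The 11 cells with 1 to 4 Lhb UMIs had a median of 17 Tshb UMIs (0 to 65), and the 17 cells with none a median of 8 (0 to 139). The cells rich in Lhb were thus at the bottom of the range of Tshb, and 3 of them were among the 7 cells of the main cluster with no Tshb UMI. All 4 had Cck (28 to 229 UMIs) and Apoc3 (8 to 22 UMIs). They were chosen after their values were seen. Lhb was also found in 24.8% of ependymocyte-like cells at 56.1 CPM. In the annotation its end overlaps Ruvbl2, on the opposite strand, by 138 bases, and the use of strand in counting is not given in the sources used here.

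Most other hormone genes of the anterior pituitary had no UMI in the main cluster. Gh, Prl and Fshb had 0 UMIs in its 32 cells, as had the gonadotrophin-releasing hormone receptor Gnrhr, which allows up to 11.0 CPM each (3 counts of 272923 UMIs). Pou1f1, the factor of the thyrotrophs, somatotrophs and lactotrophs of the pars distalis, was also at 0 there. Of the 6 genes of the hormone list, 2 had enough UMIs: Lhb was at least 4-fold higher, and Pomc was at 33.7 CPM against 114. In the main cluster Pomc had 8 UMIs in 7 of 32 cells (29.3 CPM, 12.7 to 57.8). The receptor for the hypothalamic releasing hormone TRH, Trhr, had 0 UMIs in the 35 cells, which allows up to 10.1 CPM.

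**Figure D2:**
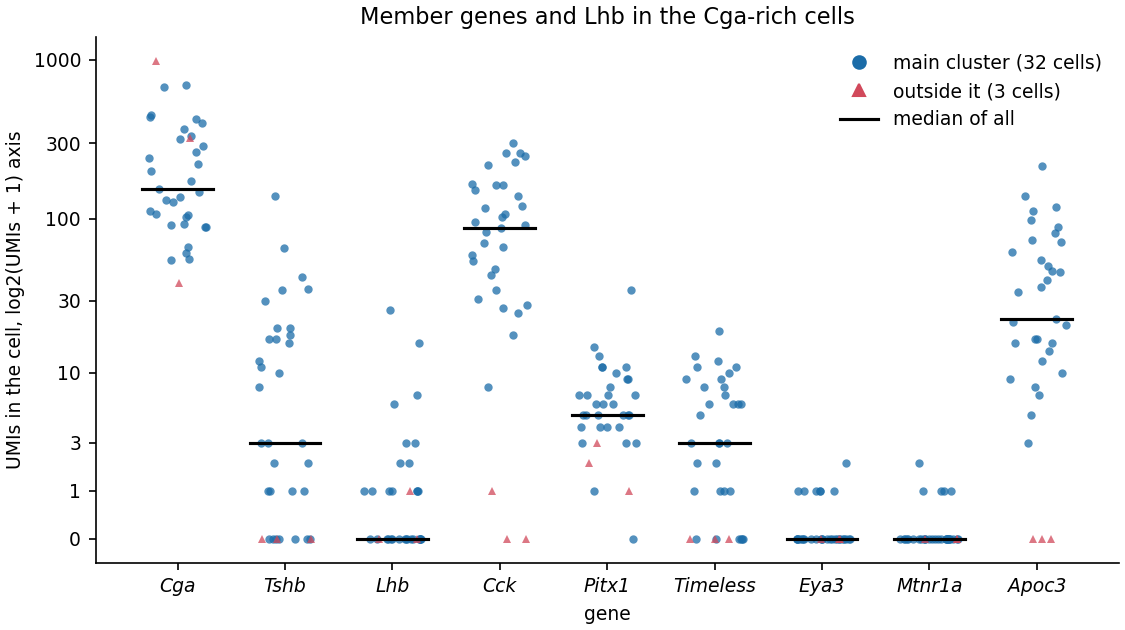
UMIs of the 8 genes and of Lhb in each of the 35 Cga-rich cells, on a log2(UMIs + 1) axis, with the median of all 35 as a line. Cells of the main cluster (circles, 32) all hold Cck and Apoc3, and the 3 cells outside it (triangles) hold no Tshb, Timeless or Apoc3.

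Cck encodes cholecystokinin, a peptide of gut and brain. It had 0 to 301 UMIs per Cga-rich cell, with a median of 88, and at least 8 UMIs in every cell of the main cluster. The level was 12218 CPM (11824 to 12623) against 32.3 CPM (30.2 to 34.4) in other cells, a log2 ratio of 8.18 and place 3. 33 of 35 cells (94.3%) held a Cck UMI against 5.26% of other cells and 3.46% of microglia-like cells. Neuron-like cells also held Cck, at 103 CPM, with up to 68 UMIs in a cell. A neuron-like cluster of 75 cells led by Scg2, Avp and Vip held 401 Cck UMIs in 27 cells (773 CPM). In all, 79.5% of Cck UMIs were in the Cga-rich cells. Both Cck receptors were at 0 in Cga-rich cells: Cckar was seen mainly in neuron-like cells (31 UMIs in 26 of 508 cells) and Cckbr in ependymocyte-like cells (22 UMIs in 19 of 202 cells).

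Pitx1 encodes a homeodomain factor of the whole pituitary anlage. It had 0 to 35 UMIs per Cga-rich cell, with a median of 5, and a UMI in 34 of 35 cells (97.1%) against 33 other cells (0.555%). The level was 808 CPM (709 to 917) against 1.79 (1.34 to 2.35), a log2 ratio of 6.12 and place 8. Of the 8 genes, Cga and Pitx1 alone had UMIs in all 3 cells outside the main cluster, where Pitx1 had 3, 2 and 1. An antisense gene and another non-coding gene overlap Pitx1 in the annotation.

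A second group of cells held Pitx1 without the hormone genes. This cluster of 40 cells, none Cga-rich, was led by Mgp, Fxyd5, Igfbp6, Ccn3 and Spon2, with Epcam also among its leading genes, and of all marker lists the pituitary epithelium list scored highest in it. It held 30 Pitx1 UMIs in 13 of its cells (160 CPM, 108 to 228) and 104 of Epcam in 16. Cga was at 37.3 CPM (15 to 76.9) and Cck at 10.7 CPM, with intervals that reach the level of other cells. Tshb and Timeless had 0 UMIs, which allows up to 16 CPM. The cluster also held Krt14 (54 UMIs) and Trp63 (48 UMIs), genes of basal epithelium, so it is named here by its leading genes alone.

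Of 20 other pituitary transcription factors, 9 had at least 50 UMIs. In Cga-rich cells, 4 were at least 4-fold higher (0.796% of all ranked genes) and 1 was lower (3.52%). The median log2 ratio of the 9 was 1.19. Gata2, which acts with Pou1f1 on the TSH subunit genes in the pars distalis, was at 327 CPM against 2.41 (log2 ratio 4.76), with a UMI in 27 of 35 cells. Isl1, also a gene of arcuate neurons, was at 286 CPM against 39.8 (2.57). Sox2, of stem cells and glia, was at 23.6 CPM against 145 (-2.21). Lhx3, which had too few UMIs to be ranked, was found in 18 of 35 cells at 77.4 CPM against 0.621. Lhx4 and Hesx1 had no UMI in Cga-rich cells.

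Timeless encodes a replication fork protein with a debated role in the mammalian clock. It had 0 to 19 UMIs per Cga-rich cell, with a median of 3, and a UMI in 26 of 35 cells (74.3%, 56.7 to 87.5%) against 93 other cells (1.56%). The level was 559 CPM (477 to 651) against 3.38 (2.74 to 4.12), a log2 ratio of 5.41 and place 9. After thinning, 17 of 35 (48.6%) and 0.868% of cells kept a UMI. Its partner Tipin was near the level of other cells, at 43.8 against 36.6 CPM. Of all Timeless UMIs, 62.9% (56.7 to 68.7%) were in Cga-rich cells. Outside them it was at 27.2 CPM in endothelial-like cells (10.0 to 59.3) and 12.6 CPM in oligodendrocyte precursor (OPC)-like cells, and at 1.66 CPM in neuron-like cells.

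Eya3 and Mtnr1a, at either end of the melatonin pathway, were sparse. Eya3 had 8 UMIs in 7 of 35 Cga-rich cells (20%, 8.44 to 36.9%) and 131 UMIs in 129 other cells (2.17%). Its level was 26.9 CPM (11.6 to 53.1) against 4.52 (3.78 to 5.36), a CPM ratio of 5.96 but a log2 ratio of 1.35 with the 10 CPM added, which falls short of 4-fold. After thinning, 2 of 35 cells (5.71%, 0.700 to 19.2%) kept a UMI against 0.833% of others, intervals that overlap. Eya3 UMIs were spread over all types, with 5.76% of them in Cga-rich cells. Mtnr1a had 6 UMIs in 5 of 35 Cga-rich cells (14.3%, 4.81 to 30.3%) and 4 UMIs in 4 of 5947 other cells (0.0673%, 0.0183 to 0.172%). At 20.2 CPM (7.41 to 44.0) against 0.138 (0.0376 to 0.353), the intervals are apart, though there were 10 UMIs in all. The other receptor, Mtnr1b, had no UMI in any cell.

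Of 26 other genes of the melatonin and light-period pathway, 23 had at least 50 UMIs, with a median log2 ratio of 0.13. Of the 23, 3 were at least 4-fold higher (0.796% of all ranked genes) and 2 were lower (3.52%). Hlf, a PAR bZIP factor that reads D-boxes, was at 273 CPM against 32.0 (2.75), while its relatives Dbp and Tef were at 350 against 140 CPM (1.27) and 97.6 against 74.3 CPM (0.35). The immediate early genes Egr1 (347 against 24.8 CPM) and Nr4a1 (94.3 against 11.3 CPM) were the other higher genes. The inhibitory G protein subunit Gnai1 was at 20.2 against 133 CPM. The adenosine receptor Adora1 had no UMI against 32.7 CPM, where 0 allows up to 10.1 CPM. Core clock genes stayed within 4-fold, such as Clock at 74.1 against 45.9 CPM and Cry1 at 33.7 against 29.3 CPM. Per2 had no UMI in Cga-rich cells, which allows up to 10.1 CPM, against 5.42 CPM in other cells.

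Among 12 genes of thyrotroph signalling, 10 had at least 50 UMIs, with a median log2 ratio of -0.81. Of the 10, 1 was at least 4-fold higher (0.796% of all ranked genes) and 2 were lower (3.52%). Rxrg, a retinoid X receptor that damps TSH in the pars distalis, was higher, at 87.5 against 13.7 CPM. The thyroid hormone receptor Thra, at 67.3 against 324 CPM, was among the lower genes. Tshr, the receptor for TSH, was at 37.0 CPM (11 UMIs in 9 cells) in the Cga-rich cells and at 28.5 CPM in tanycyte-like cells (161 of 1421 cells with a UMI). A cluster of 215 cells without a name, led by Fxyd1, Dynlrb2 and Dio3, held more of it, at 73.7 CPM. Dio2 was mostly in tanycyte-like cells (110 of 155 UMIs in other cells, 18.0 CPM) and Dio3 in the cluster it helps lead (209 of 258 UMIs, 257 CPM). Neither deiodinase had a UMI in Cga-rich cells.

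Apoc3 encodes an apolipoprotein of triglyceride-rich particles, made mainly in liver and intestine. It had 0 to 216 UMIs per Cga-rich cell, with a median of 23, and at least 3 in every cell of the main cluster. The level was 5296 CPM (5038 to 5564) against 12.1 (10.9 to 13.5), a log2 ratio of 7.90 and place 4. 32 of 35 cells (91.4%) held a UMI against 4.41% of other cells and 1.98% of microglia-like cells. Neuron-like cells were at 26.2 CPM and ependymocyte-like cells at 22.0 CPM. In 1 neuron-like cluster of 366 cells, 82 cells held 161 Apoc3 UMIs, up to 12 in a cell.

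Apoa1 and Apoa4 lie beside Apoc3 on chromosome 9. Apoa4 was at 182 CPM against 0.172 (log2 ratio 4.24), with a UMI in 20 of 35 cells, and Apoa1 at 296 CPM against 23.4 (3.20). The fourth gene of the cluster, Apoa5, had 2 UMIs in 1 Cga-rich cell and none elsewhere. Apoa1 was also found in tanycyte-like cells (76.2 CPM, 349 of 1421 cells), whereas Apoa4 had 5 UMIs in all the other cells. Of 12 further apolipoproteins, 6 had at least 50 UMIs: Apoa1 and Apoa4 were at least 4-fold higher, and Apoe (1922 against 15627 CPM), Apod (67.3 against 631 CPM) and Apoc1 (6.73 against 114 CPM), genes of glia, VLMC and macrophages, were lower. The median log2 ratio of the 6 was -1.72. Among all ranked genes, 0.796% were at least 4-fold higher and 3.52% lower.

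**Figure D3:**
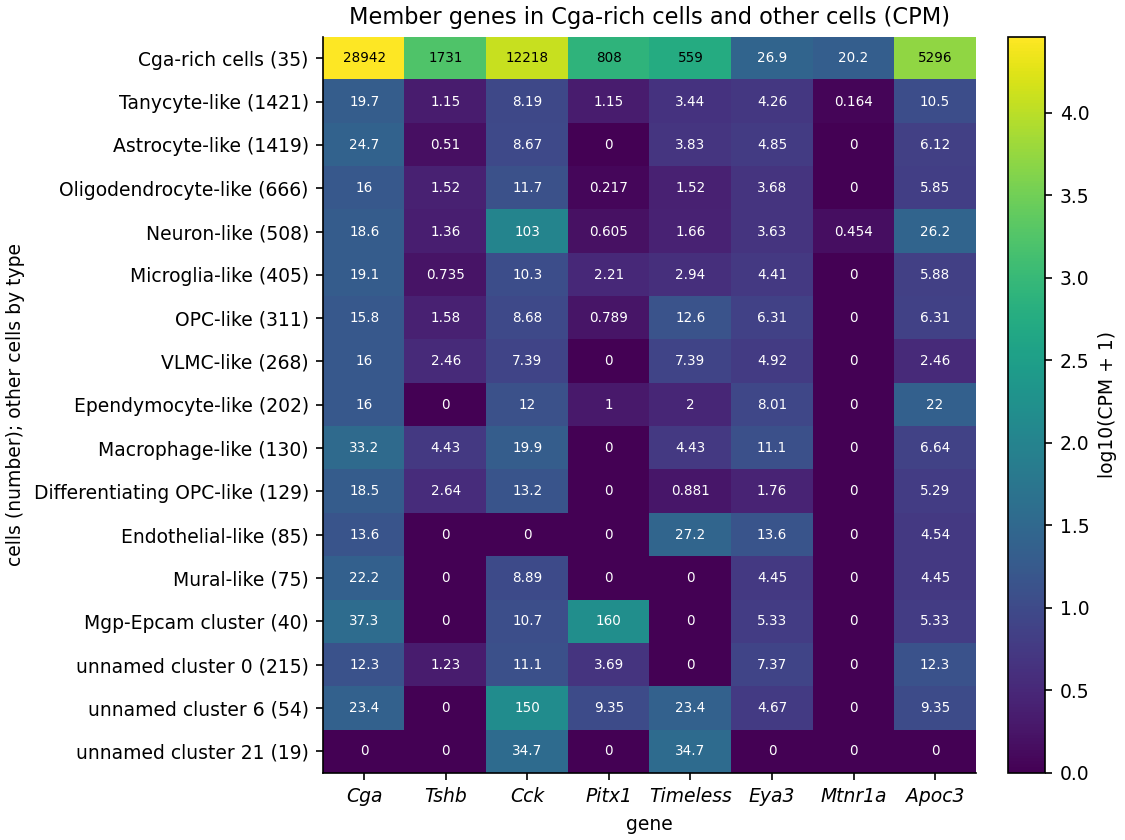
CPM of the 8 genes (columns) in the Cga-rich cells and in the other cells of each cell type (rows, number of cells in brackets), with colour on a log10(CPM + 1) scale. Outside the Cga-rich row, the brightest squares are Cck in neuron-like cells and the mixed cluster 6, and Pitx1 in the cluster led by Mgp, drawn as the Mgp-Epcam cluster. In cluster 6, 1 cell held 30 of the 32 Cck UMIs.

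Other genes with the largest log2 ratios named the machinery of peptide secretion and of epithelium. Chromogranins, which pack hormone granules, stood with the 8 genes: Chga was at 39184 CPM against 95.3 (log2 ratio 8.54, place 2) with a UMI in all 35 cells, and Chgb at 12824 CPM against 97.3 (6.90). Of 13 granule genes, 5 were at least 4-fold higher (Chga, Chgb, Scg2, Scg5 and the prohormone convertase Pcsk1) and 2 were lower. The median log2 ratio of the 13 was 0.82. Among all ranked genes, 0.796% were at least 4-fold higher and 3.52% lower. Scg2 was at 6451 against 441 CPM and Pcsk1 at 64.0 against 6.35 CPM. The convertase Pcsk2 was at 10.1 against 97.9 CPM, and Vgf had no UMI against 79.5 CPM.

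The carboxylesterase Ces1d (1922 against 11.1 CPM, log2 ratio 6.52) and the growth factor Vegfd (485 against 1.66 CPM, 5.41) completed the first 10. The claudins Cldn9 (434 against 2.31 CPM) and Cldn7 (236 against 0.414 CPM) and the adhesion molecule Epcam (737 against 13.2 CPM), genes of epithelial junctions, were among the first 20. Immediate early genes were there as well: Egr4 was at 303 against 3.62 CPM, Ier2 at 1778 against 81.6 CPM and Fos at 2845 against 142 CPM. Fos UMIs were in 32 of 35 Cga-rich cells and in 13.8% of others.

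The genes were found together in single cells. Of the 35 Cga-rich cells, 24 (68.6%, 50.7 to 83.1%) held UMIs of Cga, Tshb, Cck, Pitx1 and Apoc3 at once. By number of the 8 genes detected, 11 cells held 7, 12 held 6, 5 held 5, 4 held 4, 1 held 3 and 2 held 2. Among the other 5947 cells, 1 held 4 of the genes and none held 5 or more, which allows a share of up to 0.0504%. In them, 28 cells had both Cck and Apoc3, and 3 had both Tshb and Cck. No Cga-rich cell had both Eya3 and Mtnr1a, which at 7 and 5 cells allows a share of up to 8.57%.

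Levels within the cells were linked to different degrees. Over the 35 cells, on log2(UMIs per 10000 + 1), Pearson's r of Cck with Apoc3 was 0.87 (Spearman 0.75), and within the 32 cells of the main cluster 0.64 (0.67). For Timeless with Apoc3, r was 0.67 over all and 0.59 in the main cluster, and for Tshb with Apoc3 0.58 and 0.50. For Cga, r was near 0 with each: with Tshb it was 0.07 over all and 0.16 in the main cluster, with Cck -0.13 and 0.09, with Pitx1 0.04 and 0.04, and with Apoc3 -0.10 and 0.01. Values of a cell share its depth and capture and the scaling to its total, the points are cells of 1 sample, and no test was made.

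After thinning, the 17 cells with a Tshb UMI were set beside the 15 cells of the main cluster without one. Before thinning, 7 cells of the main cluster had no Tshb UMI, so the rest of the 15 held Tshb that the draw lost. Apoc3 was at 7029 CPM (6166 to 7979) with Tshb and 3667 CPM (3014 to 4419) without, and Cck at 15059 (13783 to 16422) and 10100 (8995 to 11304). Ces1d was at 2882 and 1300 CPM. Apoa1 had 12 UMIs in the cells with Tshb and 0 in those without. The summed level of Cga was also higher with Tshb, at 26147 CPM (24456 to 27924) against 21733 (20097 to 23468). Its median per cell was the same, however, at 40 UMIs in both groups. Chga (41000 and 46000 CPM) and Scg2 (5794 and 8733 CPM) were higher without Tshb. Lhb had 1 UMI in the cells with Tshb and 16 in those without. Per UMI, the cells that kept a Tshb UMI held more Apoc3 and Cck and less Chga and Scg2. No replicate gives the spread of these values.

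**Figure D4:**
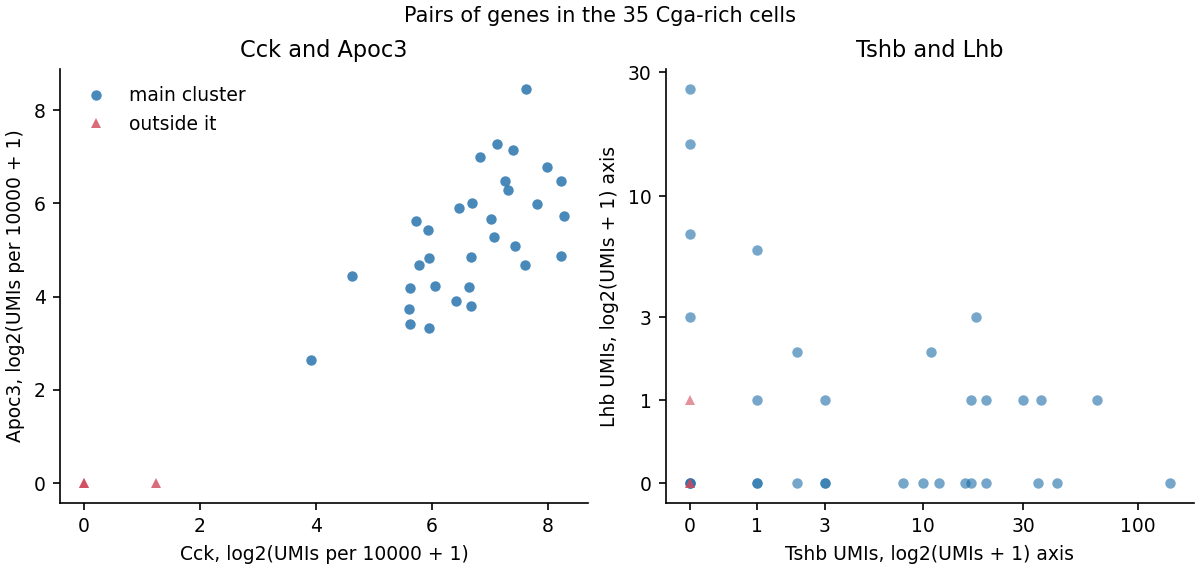
Left, Cck against Apoc3 in the 35 Cga-rich cells, both as log2(UMIs per 10000 + 1), where the 2 rise together and the 3 cells outside the main cluster (triangles) lie at or near the origin. Right, Tshb against Lhb UMIs on log2(UMIs + 1) axes, where the 4 cells with the most Lhb hold 0 or 1 Tshb UMI.

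The 3 Cga-rich cells outside the main cluster differed from the rest and from each other. They held 990, 325 and 39 Cga UMIs, under barcode numbers 1, 2 and 3, so the highest and the lowest Cga counts of all were among them. None had a UMI of Tshb, Timeless, Apoc3, Gata2 or Ces1d, and their Cck UMIs were 0, 0 and 1. Chga was at 19, 7 and 16 UMIs, below the lowest cell of the main cluster (121). Nnat, a gene of neuroendocrine cells and neurons, was at 134, 106 and 223 UMIs, against a median of 9 in the main cluster, where it ran from 3 to 224. The cell with 990 Cga UMIs also had 183 UMIs of Dlk1 and 1 of Pou1f1. The cell with 39 Cga UMIs had 7 UMIs of Gnrhr, 3 of Fshb and 3 of Nr5a1, which are genes of gonadotrophs. Without these 3 cells, Cga was at 26535 CPM, Tshb at 1883, Cck at 13293, Pitx1 at 857, Timeless at 608 and Apoc3 at 5764 CPM, and the same 6 genes were at least 4-fold higher.

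The low counts of the 8 genes in other cells can be read beside each other. In droplets, RNA free in the suspension gives each type UMIs of abundant genes in 1 ratio. Per 100 Cga UMIs, Cga-rich cells held 5.98 of Tshb (5.46 to 6.54) and the other cells 6.49 (4.50 to 9.09), so the intervals of the 2 ratios overlap. Cga in the other cells, at 18.6 CPM in neuron-like, 19.7 in tanycyte-like and 19.1 in microglia-like cells, ran from 12.3 to 37.3 CPM over all cell types with a Cga UMI. The level of free RNA was not measured, and its part in these counts was not tested. For Cck, Cga-rich cells held 42.2 per 100 Cga UMIs, tanycyte-like cells 41.7 (29.3 to 58.4) and neuron-like cells 555 (458 to 678). Astrocyte-like cells were at 35.1 (23.0 to 52.3) and microglia-like cells at 53.8 (26.0 to 107), intervals that hold the Cga-rich value. Oligodendrocyte-like cells were above it, at 73.0 (50.4 to 105). For Apoc3 the ratio was 18.3 in Cga-rich cells, 53.3 (38.7 to 72.8) in tanycyte-like and 141 (111 to 179) in neuron-like cells. Oligodendrocyte-like cells, at 36.5 (22.6 to 57.4), and ependymocyte-like cells, at 137.5 (68.98 to 280.1), were also above the Cga-rich value. The intervals of the other named types held it, such as astrocyte-like (24.7, 15.1 to 39) and OPC-like cells (40, 15.2 to 94.8). Some of these intervals rest on few UMIs. Pitx1 was at 2.79 in Cga-rich cells and 3.17 (1.67 to 5.48) in the other named types without neuron-like cells and the cluster led by Mgp. For Timeless (1.93 and 19.5) and Eya3 (0.0931 and 24.1) the ratio was higher outside the Cga-rich cells in the same types.

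By barcode number, the Cga-rich cells numbered 11, 6, 9 and 9, or 0.402 to 0.670% of the cells under a number. Cga was at 32247, 36320, 25301 and 23063 CPM in them for numbers 1 to 4. Tshb was at 2002, 2071, 1445 and 1437 CPM, and Apoc3 at 6413, 4469, 3915 and 5968 CPM. Cck was at 14003, 14925, 7993 and 12197 CPM, where the value under number 3 lay lowest. Pitx1 ran from 604 to 972 CPM and Timeless from 496 to 656 CPM. Under each number these 6 genes were far above the other cells of that number. Within the main cluster alone, Cga was at 23725, 34802, 27485 and 23063 CPM, so the value under number 1 rests on the cell with 990 UMIs. In the other cells Cga was at 15, 14.3, 23.2 and 23.6 CPM, found in 6.56, 6.19, 11.3 and 11.1% of them. Since no number has a known condition, these values were not grouped or compared.

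**Figure D5:**
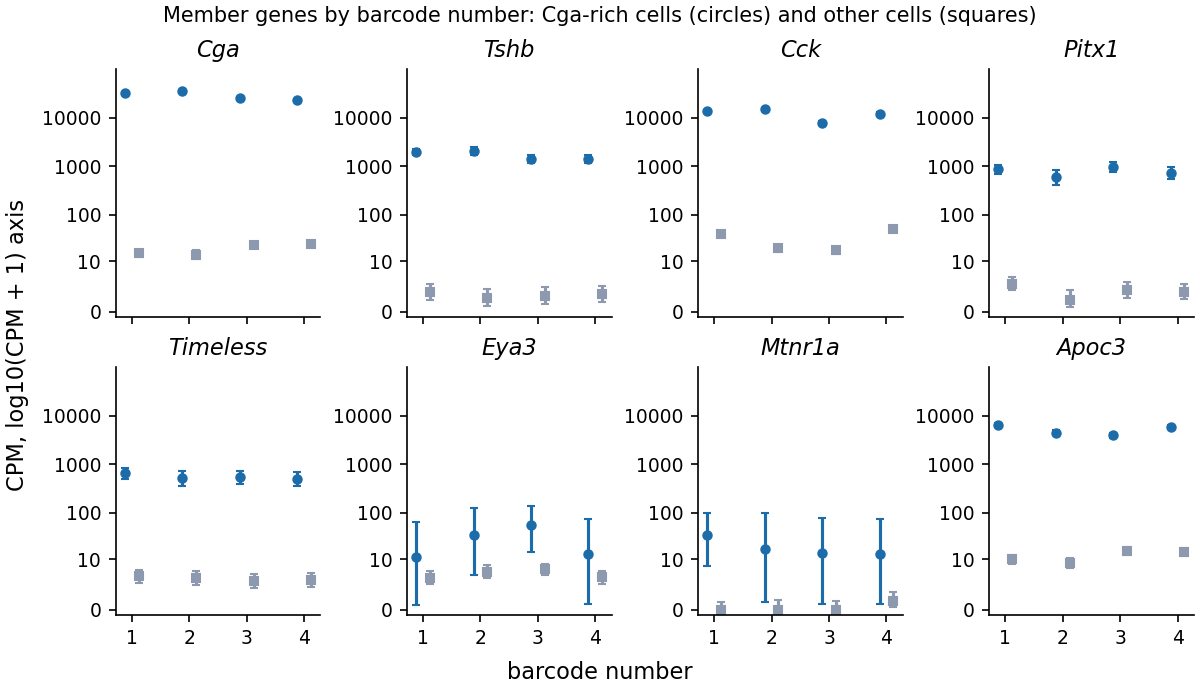
CPM of each gene on a log10(CPM + 1) axis under barcode numbers 1 to 4, in Cga-rich cells (circles) and other cells (squares), with 95% exact Poisson intervals as bars. Cga, Tshb, Cck, Pitx1, Timeless and Apoc3 stand apart from the other cells under every number, and the intervals of Eya3 and of Mtnr1a overlap under some.

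Over the 26 clusters, the genes whose log2(CPM + 10) was most like that of each gene were found by Pearson's r, a description that rests mostly on the main cluster. Tshb was most like Apoa4 (0.99), Apoc3 (0.96) and Aldh1a3 (0.92), and Apoc3 most like Apoa4 (0.96), Tshb and Vegfd (0.90). Timeless was most like Apoa4 (0.89), Vegfd (0.88) and Tshb (0.87). Cga was most like Kcnmb2 (0.93), Vegfd (0.89) and Gnb3 (0.88), a G protein subunit. Cck, with its second peak in neurons, was most like Chga (0.94), Nell1 (0.91) and Insm1 (0.90). Pitx1, with its second peak in the cluster led by Mgp, was most like Cldn7 (0.98) and Cldn9 (0.97). For Eya3 the nearest genes were Ifit1 (0.74), Gata2 (0.73) and 3110070M22Rik (0.73), and Mtnr1a had too few UMIs for the measure.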

How the data were processed

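The authors mapped reads to mm10 and counted UMIs with Cell Ranger 2.0, and deposited raw UMI counts per gene and cell for all samples in 1 matrix of 5982 cells and 29288898 UMIs. No cell was removed. The 8 genes, their threshold and the gene lists were chosen with earlier results of these data known. Counts were summed over Cga-rich and other cells, and genes with at least 50 UMIs were compared on log2(CPM + 10), with a difference of at least 2 called 4-fold. With 1 sample there was no test across genes, and the planned comparison of refed with fasted cells was not made. Named genes were the 8, list genes past 4-fold, the 20 largest ratios, and the 3 nearest genes of each by Pearson's r over clusters; others were named beside them to complete a list or after their values were seen.

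Cells were clustered with scanpy 1.11.5 (2000 variable genes without the 8, 30 principal components, 15 neighbours, Leiden resolution 1). A cluster was named X-like where a marker list scored at least 0.3 and 1.5 times the next, with 3 markers at least 4-fold above the median cluster. Doublets were marked with Scrublet and kept. Thinning drew 2000 UMIs per cell and left out 304 shallower cells. Gene positions and symbols came from GENCODE vM21. The fold step was tested on simulated data. Some genes that enter the counts of the lists are not reported here.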

Additional observations from a re-analysis of the deposited data

Results flagged for a closer look

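For 16 sets of 4 values (each of the 8 genes in Cga-rich and in other cells, by barcode number), the distance of the highest or lowest value to the next was set against the whole range, with Dixon's 95% critical value as the limit, which chance passes in about 1 of 20 sets. 1 set passed it. Mtnr1a in other cells was at 0.523 CPM under barcode number 4 and at 0 under the other 3 numbers, which is 4 UMIs in 4 cells. With 3 values tied at 0, the distance equals the whole range whatever the count. The rate of 1 in 20 does not hold for such a set, and nothing is drawn from it.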

How the results depend on the processing

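The number of Cga-rich cells was 34 to 35 with Cga thresholds of 10 or 50 UMIs or 2000 per 1e+06 UMIs of the cell, and 24 to 29 with a barcode number left out. Genes at least 4-fold higher numbered 107 to 117, genes lower 489 to 555 and the 8 genes higher 6 in every case with a barcode number left out. With a pseudocount of 1 CPM, 226 genes were higher and 2828 lower, and Eya3 passed 4-fold (log2 ratio 2.34), which made 7 of the 8 genes. With cells thinned to 2000 UMIs, 894 genes were lower. The cause of these moves was not tested. This number was 6 under the 14 other alternatives run for it. With the 8 genes kept among the variable genes, all Cga-rich cells (100%) fell into 1 cluster of 89 cells, and 91.4% into 1 cluster of 32 at Leiden resolutions 0.5 and 2. With K-means, 88.6% fell into 1 cluster of 583 cells, which did not set them apart. No log2 ratio of the 8 genes changed sign. Leaving out the 3 cells outside the main cluster was chosen after seeing the data, and gave 118 genes higher and 528 lower. No paired analysis was possible because the cells carry no condition. Depth limits Eya3 and Mtnr1a, with 8 and 6 UMIs in Cga-rich cells.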
